A study of Homo sapiens with 18 samples.

Results

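The 3 arrays of mock-treated cells taken at 60 min were described on their own, as the baseline transcript levels of HEK293 cells before any flagellin. They were chosen by their titles and make up 3 of the 18 arrays of the study. The described genes are those of 9 lists: pattern receptors, their adaptors and kinases, cytokine receptors, kidney, neural and adrenal lineage genes, cell cycle genes, and, for orientation, markers of other cell types and housekeeping genes. Of 468 listed genes, 421 had a row of their own on the array, that is, a row named with exactly 1 gene symbol, and the other 47 were not analysed here. No group was compared with another, and no statistical test was made.

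HEK293 is a human embryonic kidney line transformed with adenovirus DNA. Every group of the study, mock included, consisted of HEK293 cells that overexpress murine TLR5. The cells grew to passage 7 in SILAC media, in which lysine and arginine carry heavy, medium or light isotopes. Flagellin of E. coli Nissle, flagellin of Salmonella Typhimurium SL1344 or no flagellin (mock) was given for 60 or 120 min, and each group has 3 arrays, A, B and C. The mock arrays at 60 min carry the mock treatment and the transgene and no other agent. The sources used here do not say which isotope each array's cells had, which promoter drives the transgene or whether the line is 1 clone. The labels call A, B and C biological replicates without saying whether they are separate cultures, so the spread between them may be technical.

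Toll-like receptors recognise microbial molecules at the cell surface or in endosomes and signal through adaptors with a TIR domain to the IRAK kinases, TRAF6, TAK1 and the IKK complex, which frees NF-kB. NOD-like receptors and the RNA and DNA sensors watch the cytosol. Cytokine receptors that lack a kinase of their own depend on JAK kinases, and receptors of the TGF-beta family carry a serine/threonine kinase. HEK293 cells are widely used to study single Toll-like receptors because they respond to few Toll-like receptor ligands unless a receptor is added. Although taken from embryonic kidney, the line has also been described as carrying neuronal and adrenal transcripts.

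A level is a deposited log2 value of 1 array, and a difference of 1 is a doubling. Since most of these lists hold genes that a kidney line may not use, each level was set against a reference level: the 95th percentile, on the same array, of the 360 olfactory receptor genes, a family used mainly by sensory neurons. This reference was 2.44 on array A, 2.25 on B and 2.38 on C. It was close to the array medians of 2.29, 2.28 and 2.30, which cover all rows, also those without a gene symbol. Among genes with exactly 1 symbol it lay lower, at percentiles 35.8, 33.1 and 34.8. A gene is called above the reference where it exceeded it on all 3 arrays, which held for 13799 of 22357 genes (61.7%) and for 5 of the olfactory receptors. A stricter reference, the 95th percentile of 88 keratin-associated protein genes of the hair shaft, lay at 3.36, 3.50 and 3.37, and 50.8% of genes exceeded it on all 3 arrays. The percentile rank of a gene on an array mixes the amount of transcript with the brightness of its probes, so genes are set against the reference and the whole array and not ordered against each other. A gene not above the reference is not shown to be silent. The arrays resembled each other closely: for genes above the reference the median absolute difference between 2 arrays was 0.156 for A and B, 0.159 for A and C and 0.137 for B and C, and 52 to 67 genes differed more than 2-fold between a pair. The number of arrays, 3, limits the precision of every SD given.

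Most genes of the pattern receptor list, which also holds co-receptors, chaperones and some adaptors, did not exceed the reference. Of 48 measured, 17 lay above it on all 3 arrays (35.4%, against 61.7% of all genes), 26 on none and 5 on 1 or 2. The stricter reference was exceeded by 12 of the 48, against 50.8% of all genes. All 17 were above each array's own reference on all 18 arrays of the study, where 58.9% of all genes were. Among 10 Toll-like receptors, TLR3 and TLR5 were above the reference and TLR2, TLR4, TLR6, TLR7, TLR8 and TLR10 were below it on every array. The group of RNA and DNA sensors, which includes the adaptors MAVS and STING1, differed from this, with 7 of 9 above the reference.

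TLR3 (transcript cluster 16972993), the endosomal receptor for double-stranded RNA, had a log2 level of 4.38 on array A, 4.40 on B and 4.53 on C (mean 4.44 ± 0.08 SD, n = 3; mean percentile rank 55.7). It was the only Toll-like receptor above the stricter reference on all 3 arrays. TLR5 (transcript cluster 16699634), the flagellin receptor, stood at 4.02, 3.60 and 3.32 (mean 3.65 ± 0.35 SD, n = 3). It exceeded the olfactory receptor reference on all 3 arrays, was highest on A and lowest on C, and was below the stricter reference on C. These probes were designed for human TLR5, and whether they also read the murine transgene was not tested. Over all 18 arrays, TLR5 lay between 3.17 and 4.18.

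TLR9, the endosomal receptor for unmethylated CpG DNA, stood at 2.26, 2.55 and 2.29, above the reference on B alone. TLR1, a partner of TLR2, stood at 1.81, 2.30 and 1.79 and also exceeded the reference on B alone, where the reference was lowest. The mean of TLR9 equalled the reference within 0.01, and the mean difference of TLR1 from it was -0.39. TLR4, the receptor for lipopolysaccharide, stood at 1.72, 2.07 and 1.60. TLR2, the receptor for bacterial lipoproteins, stood at 1.36, 1.65 and 1.61, and TLR8, an endosomal receptor for single-stranded RNA, at 1.33, 1.52 and 1.68. The remaining TLR6, TLR7 and TLR10 had means of 1.62, 1.54 and 1.67, in the same range as TLR2 and TLR8.

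Among the proteins that help Toll-like receptors to fold, travel or bind ligand, 3 of 8 were above the reference (37.5%, against 61.7% of all genes). CNPY3, an endoplasmic reticulum chaperone of Toll-like receptors, stood at 8.92, 9.07 and 9.01, at a mean percentile rank of 95.05. UNC93B1, which carries endosomal receptors out of the endoplasmic reticulum, stood at 5.18, 4.66 and 4.74. Both exceeded the stricter reference. CD14, the lipopolysaccharide co-receptor, was above the olfactory receptor reference by a mean of 0.29 (2.60, 2.76 and 2.60) and below the stricter one. LY96, which encodes the MD-2 subunit that TLR4 needs to bind lipopolysaccharide, stood at 1.34, 1.42 and 1.25, and CD36 at 1.19, 1.13 and 1.26. LBP, CD180 and LY86 were below the reference on all 3 arrays too.

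NOD-like receptors and inflammasome genes had 4 of 15 members above the reference (26.7%, against 61.7% of all genes). NLRX1, a mitochondrial family member, stood at 6.92, 6.50 and 6.72. NAIP, the cytosolic sensor that binds flagellin, stood at 5.52, 5.74 and 5.62 (mean 5.63 ± 0.11 SD, n = 3). NLRC4, the partner with which NAIP forms an inflammasome, stood at 1.50, 1.66 and 1.49 and was below the reference on each array. The effector protease CASP1 (1.19, 1.50 and 1.54), the adaptor PYCARD (2.05, 1.87 and 2.02) and NLRP3 (1.72, 1.93 and 1.57) were below it as well. So were AIM2, CASP4, CASP5 and NOD2. NOD1, a receptor for bacterial peptidoglycan fragments, stood at 4.91, 4.77 and 4.16 and was lowest on C. NLRP1 stood at 3.04, 2.56 and 2.94, between the 2 references. NLRC5 and NLRP12 were above the reference on 2 arrays and NLRP6 on 1.

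The group of sensors of foreign RNA and DNA, with their adaptors, had the largest share above the reference in the pattern receptor list (77.8%, against 61.7% of all genes). IFI16, a DNA sensor, stood at 8.49, 8.51 and 8.41, EIF2AK2, the double-stranded RNA kinase PKR, at 8.28, 8.17 and 8.28, and MAVS, the mitochondrial adaptor of RNA sensing, at 8.01, 8.05 and 8.23. RIGI stood at 7.24, 6.72 and 7.02 and IFIH1, which encodes MDA5, at 5.16, 4.99 and 5.02. The whole RNA-sensing route from RIGI and IFIH1 to MAVS was thus above both references on all 3 arrays. DHX58, the regulatory member of the family, stood at 3.43, 2.88 and 3.22, above the stricter reference on A alone. For DNA sensing, STING1, the adaptor of the endoplasmic reticulum, stood at 6.57, 6.50 and 6.56, and CGAS, the enzyme that makes its ligand, at 1.70, 1.64 and 1.70, below the reference on each array. ZBP1, a sensor of Z-form nucleic acid, was also below it. Of 6 C-type lectin genes, CARD9, the signalling adaptor, was the 1 above the reference (3.18, 3.65 and 3.44), and the receptors CLEC7A, CLEC4E, CLEC6A, CD209 and MRC1 were below it on every array.

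**Figure D1:**
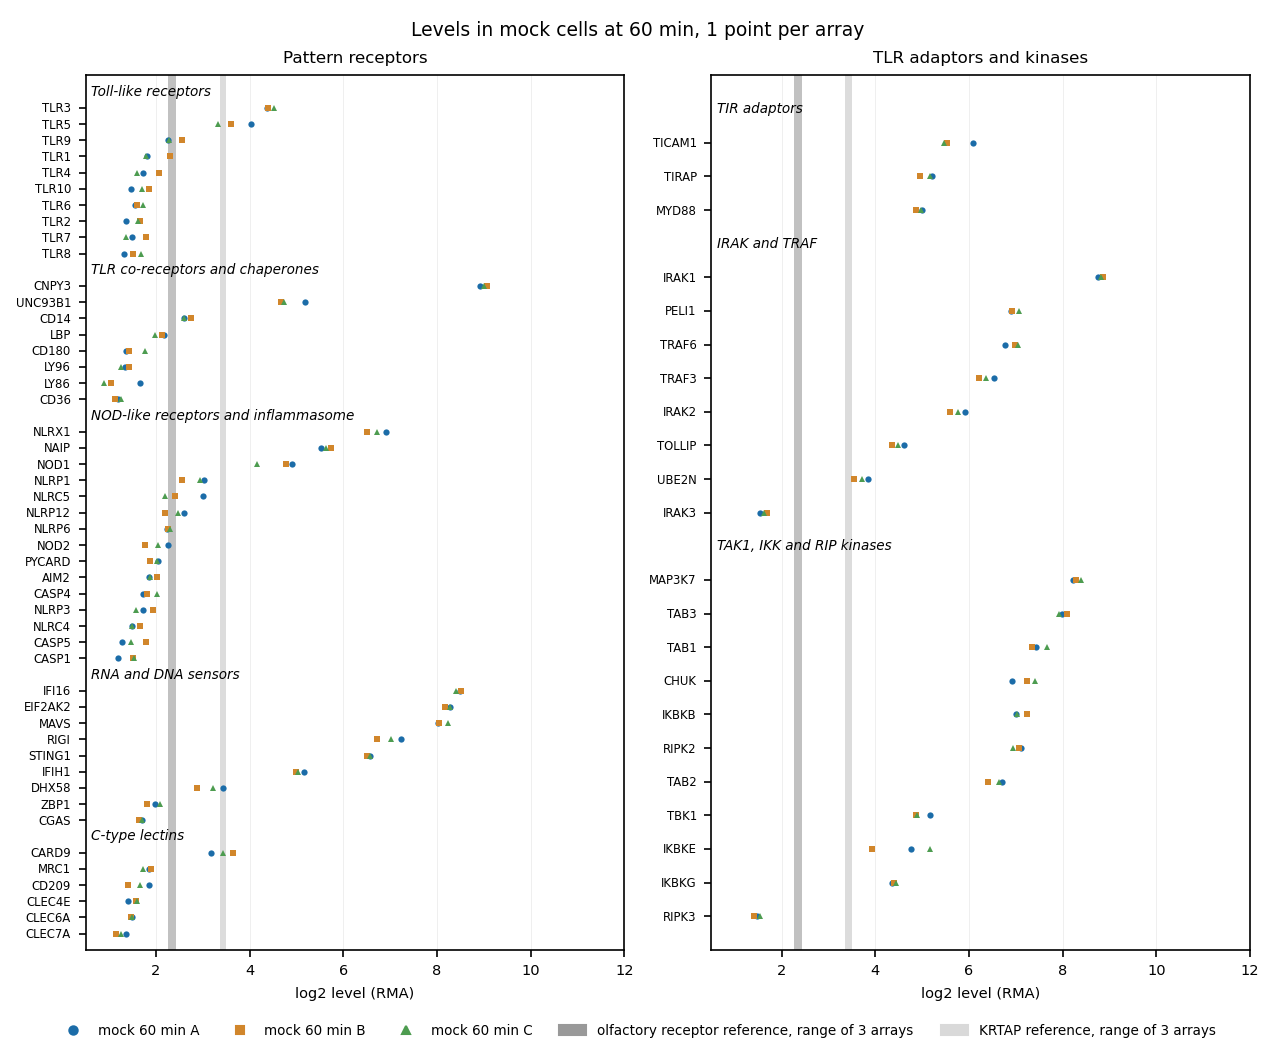
Log2 level (horizontal axis) of each measured pattern receptor gene (left) and of each adaptor and kinase (right) on the mock 60 min arrays, 1 point per array, with the grey bands giving the range of each reference over the 3 arrays. Of 48 genes of the pattern receptor list, which includes co-receptors, chaperones and some adaptors, 17 lie above the darker band on all 3 arrays. Of the 22 adaptors and kinases on the right, 20 do.

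Most of the measured signalling genes below the receptors exceeded the reference. Of 22 adaptors and kinases, 20 were above the reference on all 3 arrays (90.9%, against 61.7% of all genes). The same count of 20 held for the stricter reference (against 50.8% of all genes) and for all 18 arrays (against 58.9%). The median member sat at a percentile rank of 70.5. MYD88 (transcript cluster 16939127), the adaptor that TLR5 uses, stood at 5.00, 4.86 and 4.98 (mean 4.95 ± 0.07 SD, n = 3). TIRAP, which brings MYD88 to TLR2 and TLR4, stood at 5.21, 4.95 and 5.16. TICAM1, which encodes TRIF, the adaptor of TLR3, stood at 6.09, 5.52 and 5.46 and was highest on A. Of 27 listed genes, 5 were not analysed here: IRAK4, the kinase that MYD88 recruits first, RIPK1, UBE2V1, and the adaptors TICAM2 and SARM1.

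In the IRAK and TRAF group, 7 of 8 members were above both references (87.5%, against 50.8% of all genes above the stricter one). IRAK1, the kinase recruited by MYD88, stood at 8.76, 8.86 and 8.81, IRAK2 at 5.92, 5.60 and 5.76, and TRAF6, the ubiquitin ligase that follows, at 6.78, 6.99 and 7.05. PELI1 stood at 6.90, 6.92 and 7.08, TRAF3 at 6.54, 6.22 and 6.36, and UBE2N, the ubiquitin-conjugating enzyme that works with TRAF6, at 3.84, 3.55 and 3.71. IRAK3, a negative regulator known chiefly from monocytes and macrophages, stood at 1.54, 1.68 and 1.62 and was the only member below. TOLLIP, which binds IRAK1, stood at 4.62, 4.35 and 4.49.

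The TAK1, IKK and RIP kinase group had 10 of 11 members above both references (90.9%, against 50.8% of all genes above the stricter one). MAP3K7, which encodes TAK1, stood at 8.22, 8.28 and 8.40, and its partners TAB1, TAB2 and TAB3 had means of 7.48, 6.59 and 8.0. The IKK subunits CHUK (6.93, 7.23 and 7.41), IKBKB (7.01, 7.24 and 7.03) and IKBKG (4.35, 4.41 and 4.44) were above the reference on each array. IKBKE, an IKK-related kinase of interferon induction, stood at 4.77, 3.94 and 5.17. Its SD of 0.63 was the largest of this list, whose median SD was 0.14, and array B was the low one. TBK1, its close relative, stood at 5.16, 4.88 and 4.90. RIPK3, the kinase of necroptosis, stood at 1.48, 1.40 and 1.53 and was below the reference on every array, while RIPK2, the kinase of NOD1 and NOD2, stood at 7.10, 7.07 and 6.94.

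Cytokine receptor families differed in their share above the reference, and several were split within. In all, 62 of 97 measured genes were above the reference (63.9%, near the 61.7% of all genes). The stricter reference was exceeded by 50 of the 97 (against 50.8% of all genes), and 59 were above on all 18 arrays (against 58.9%). The share ran from 7 of 7 in the gp130 family and 9 of 9 in the TGF-beta and BMP family to 2 of 16 chemokine receptors. Interferon receptors with JAK kinases had 8 of 9 members above, and TNF receptors 10 of 14.

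For interferon, IFNAR1 stood at 7.70, 7.57 and 7.71 and IFNAR2, the second chain of the type I receptor, at 5.75, 6.21 and 5.68. The type II chains IFNGR1 and IFNGR2 had means of 5.74 and 6.74, and IFNLR1, the ligand-binding chain for interferon lambda, a mean of 7.01. IL10RB, which the interferon lambda receptor shares with the IL-10 family, stood at 6.06, 6.17 and 6.22, so every chain of the 3 interferon receptor types exceeded both references. Of the kinases that serve them, JAK1 stood at 9.64, 9.55 and 9.47, JAK2 at 5.85, 6.29 and 5.95, and TYK2 at 6.32, 6.16 and 6.09. JAK3, the kinase bound to the common gamma chain, was above the reference on 2 arrays only (2.66, 2.68 and 2.32).

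Receptors that use the common gamma chain were split by chain. IL2RG, the common gamma chain itself, stood at 2.76, 2.83 and 2.40, above the olfactory receptor reference and below the stricter one, and it was not above on all 18 arrays. IL2RB stood at 2.44, 3.14 and 2.60, in the same zone, and IL2RA, IL7R and IL21R were below the reference on all 3 arrays. Other chains stood further above the reference. IL13RA1, which with IL4R forms a receptor that needs no gamma chain, stood at 7.81, 7.88 and 8.01, IL4R at 6.46, 5.68 and 6.11, and IL15RA, the private chain for IL-15, at 4.83, 4.49 and 4.56. In total 6 of 11 members of this family were above the reference (54.5%, against 61.7% of all genes). Of them, IL13RA1, IL4R and IL15RA exceeded the stricter one, which 50.8% of all genes did.

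The gp130 family was above both references throughout. IL6ST, the shared signalling chain gp130, stood at 7.82, 7.78 and 8.07. Its ligand-specific partners IL6R (7.38, 6.80 and 6.91), LIFR (7.04, 6.75 and 6.93) and OSMR (7.29, 7.31 and 7.12) were in the upper part of the arrays, at mean percentile ranks of 80.1, 78.9 and 82.0. CNTFR, IL11RA and IL27RA had means of 6.39, 5.61 and 5.09. All 7 members exceeded both references on each of the 3 arrays.

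In the IL-10, IL-12 and IL-17 group, 9 of 13 genes were above the reference (69.2%, against 61.7% of all genes). The stricter reference was exceeded by 7 of the 13, against 50.8% of all genes. IL17RA, the common chain of IL-17 receptors, stood at 8.72, 8.68 and 8.68, and IL17RB, IL17RC, IL17RD and IL17RE had means of 5.40, 5.68, 4.90 and 4.20. IL17RC was low on array C (5.92, 5.97 and 5.16). Receptors of IL-12 and IL-23 did not share this: IL12RB1 (1.87, 1.92 and 1.54), IL12RB2 (1.48, 1.32 and 1.52) and IL23R (1.36, 1.23 and 1.42) were below the reference on every array. IL10RA stood at 3.18, 2.56 and 3.0 and IL22RA1 at 2.52, 2.43 and 2.45, between the references, and IL20RA was below.

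Receptors of hormones and colony stimulating factors had 7 of 11 members above the reference (63.6%, near the 61.7% of all genes). The stricter reference was exceeded by 3 of the 11, against 50.8% of all genes. These 3 were KIT, the stem cell factor receptor (6.56, 6.24 and 6.13), EPOR, the erythropoietin receptor (5.75, 5.75 and 5.11), and GHR, the growth hormone receptor (3.98, 3.88 and 3.75). CSF1R, the receptor of macrophages, stood at 2.45, 2.68 and 3.63, so that its array C value set it apart. Its SD of 0.63 was the largest among cytokine receptors. CSF3R, PRLR, IL5RA and CSF2RA were below the reference on all 3 arrays. In the IL-1 receptor family 4 of 7 were above (57.1%, near the 61.7% of all genes). They were IL18R1 (4.44, 4.29 and 4.29), the inhibitory SIGIRR (4.10, 3.54 and 3.45), the co-receptor IL1RAP (3.24, 3.27 and 3.50) and the IL-1 receptor itself, IL1R1 (2.95, 3.05 and 3.03). IL1R1 and IL1RAP, the 2 chains of the IL-1 receptor, did not exceed the stricter reference on all 3 arrays, and IL18RAP and IL1RL1 were below the other one.

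Death and growth receptors of the TNF family were among those above. TNFRSF1A, the main TNF receptor, stood at 5.90, 5.90 and 6.01, FAS at 6.46, 6.47 and 6.47, and TNFRSF10B, a TRAIL receptor, at 7.88, 8.07 and 7.95. TNFRSF21, TNFRSF12A and TNFRSF11A had means of 8.03, 7.77 and 6.95. CD40, a receptor of antigen-presenting cells, stood at 1.39, 1.40 and 1.23, below the reference. LTBR, the lymphotoxin receptor, was above on array C alone (2.21, 2.22 and 2.47). Every TGF-beta and BMP receptor measured exceeded both references, among them TGFBR1 (8.17, 8.17 and 8.22), TGFBR2 (7.18, 7.25 and 7.29) and BMPR2 (9.81, 9.79 and 9.57).

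Chemokine receptors were the cytokine receptor group with the smallest share above the reference. CXCR4, the receptor of CXCL12, stood at 7.23, 7.49 and 7.81, lowest on A and highest on C (mean 7.51 ± 0.29 SD, n = 3). CCR7, a homing receptor of lymphocytes and dendritic cells, stood at 4.45, 4.37 and 3.93. The other 14 did not clear it on all 3 arrays. CXCR3 was above on 2 arrays and CXCR6 and CCR10 on 1, while CXCR1, CXCR2, ACKR3, CCR1 and CCR2 were among the 11 above it on none.

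**Figure D2:**
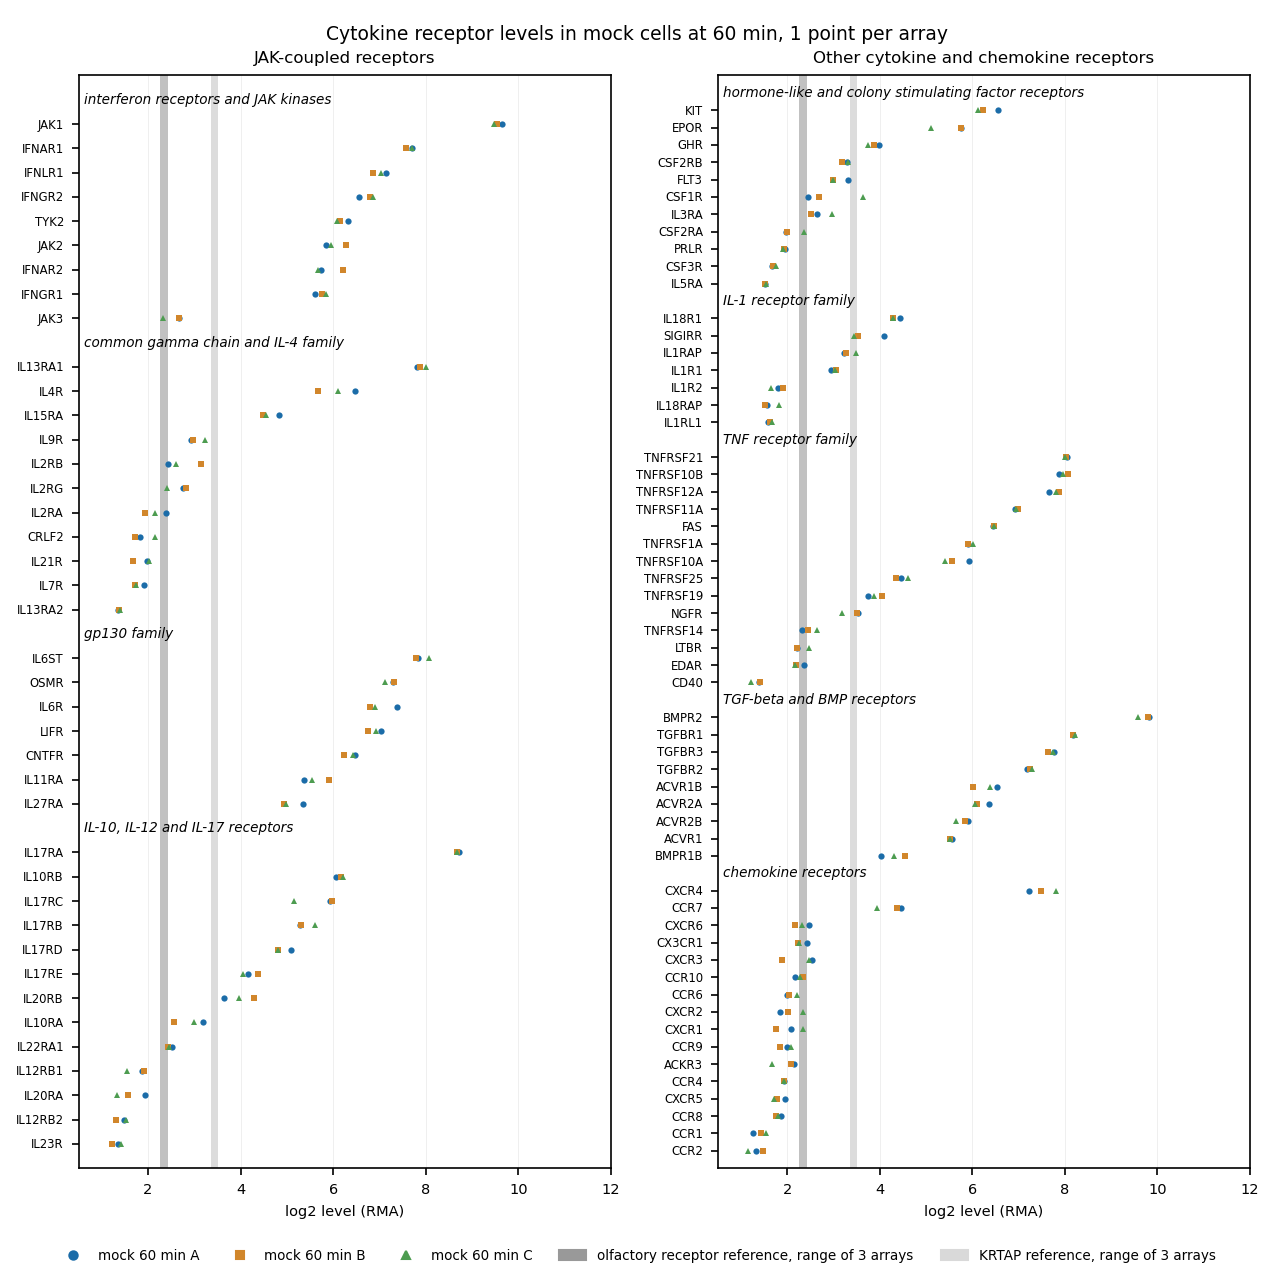
Log2 level (horizontal axis) of 97 cytokine and chemokine receptor genes on the mock 60 min arrays, 1 point per array, grouped by family, with the grey bands giving the range of each reference. All members of the gp130 and TGF-beta families lie right of both bands, and CXCR4 and CCR7 are the only chemokine receptors to do so.

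Kidney lineage genes were not read evenly along the nephron. Of 62 measured, 39 were above the reference (62.9%, near the 61.7% of all genes). The stricter one was exceeded by 28 of the 62, against 50.8% of all genes. Early nephric and nephron progenitor factors were above the reference in 15 of 17 cases. For the mature tubule it was 3 of 12 proximal tubule genes and 3 of 7 of the loop of Henle and distal tubule. In the collecting duct group it was 7 of 11 (63.6%, near the share of all genes). Of these 3 groups, 1, 0 and 3 genes exceeded the stricter reference, which 50.8% of all genes did. Above the reference on no array were 6 of 12, 3 of 7 and 2 of 11.

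GATA3 (transcript cluster 16702351), a factor of the nephric duct, stood at 9.08, 9.33 and 9.24, at a mean percentile rank of 95.9. HOXD11, which patterns the metanephric mesenchyme, stood at 8.79, 8.97 and 8.66 and SALL1, a factor of nephron progenitors, at 7.73, 7.79 and 7.74. The cap mesenchyme genes SIX2 (6.96, 6.47 and 6.63), EYA1 (6.45, 6.44 and 6.67), CITED1 (6.22, 6.24 and 6.04) and WT1 (5.44, 5.01 and 4.91) exceeded both references. FOXD1, which marks the stromal progenitors beside them, did too (6.75, 6.45 and 6.57). PAX2 stood at 5.94, 6.03 and 5.93, whereas its close relative PAX8 stood at 2.0, 2.28 and 1.89 and was above the reference on B alone. GFRA1, the co-receptor for GDNF, stood at 7.32, 6.65 and 6.50, and RET, the receptor kinase it works with, at 2.32, 1.69 and 1.67, below the reference on each array. LHX1, EMX2 and OSR1 had means of 5.82, 5.72 and 4.43, and WNT4 and WNT9B lay between the references.

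Among podocyte genes, CD2AP (8.82, 8.95 and 9.01), a slit diaphragm adaptor used in many cell types, PODXL (7.06, 6.43 and 7.07) and SYNPO (3.85, 3.65 and 3.95) exceeded both references. NPHS1, which encodes the slit diaphragm protein nephrin, stood at 2.44, 1.38 and 1.82, with an SD of 0.53 and no array above the reference. TCF21 and PTPRO were below it as well. Of proximal tubule genes, the endocytic receptor LRP2 stood at 6.60, 6.20 and 5.90. CUBN, its partner, stood at 2.76, 2.78 and 2.75 and GATM at 2.54, 2.70 and 3.37, between the references. AQP1, SLC22A6, SLC22A8, SLC22A2, SLC3A1 and CDH6 were below on all 3 arrays.

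In the loop and distal tubule group, SLC12A1, KCNJ1 and CLDN16 were below the reference on each array, and CALB1, PVALB and TRPM6 were above it on all 3. SLC12A1, the furosemide-sensitive cotransporter, stood at 1.46, 1.56 and 1.63 and KCNJ1 at 1.61, 1.3 and 1.66. SLC12A3, the thiazide-sensitive cotransporter, was above the reference on A alone (2.65, 2.22 and 2.25). The channel gene TRPM6 stood at 3.57, 3.27 and 3.23 and the calcium-binding CALB1 and PVALB at 3.20, 3.66 and 3.11 and at 2.99, 2.84 and 3.23, none of them above the stricter reference on all 3 arrays. In the collecting duct group HSD11B2, which inactivates cortisol, stood at 4.88, 4.53 and 4.13. AQP3 stood at 3.82, 3.60 and 3.94 and SCNN1B, a subunit of the epithelial sodium channel, at 3.90, 3.66 and 3.91. AQP2, the vasopressin-regulated water channel, stood at 2.26, 1.93 and 2.48 and its receptor AVPR2 at 2.03, 1.94 and 2.72, both above the reference on C alone. The median SD of kidney lineage genes was 0.181, against 0.142 for all genes.

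Epithelial and mesenchymal genes were read together. CDH1, the epithelial cadherin, stood at 7.12, 7.16 and 6.96 and EPCAM at 7.98, 7.64 and 7.95. CDH2, the cadherin of neural and mesenchymal cells, stood at 8.82, 8.72 and 8.53, VIM at 8.01, 8.27 and 8.39, and FN1, fibronectin, at 9.12, 8.97 and 9.17. The keratins KRT8, KRT18 and KRT19 had means of 4.02, 5.24 and 6.25. In this group 8 of 9 exceeded both references (88.9%, against 50.8% of all genes above the stricter one). CDH16, the cadherin of kidney tubules, was the exception at 1.74, 1.87 and 2.08.

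Neural lineage genes had 33 of 46 members above the reference (71.7%, against 61.7% of all genes) and 20 above the stricter one (against 50.8% of all genes), so the reading of this list depends on the reference. The 20 included members of each role group. NEFL (transcript cluster 17075589), the light neurofilament, stood at 10.22, 10.02 and 10.31 (mean 10.18 ± 0.15 SD, n = 3), at a mean percentile rank of 98.8. INA, the related alpha-internexin, stood at 8.44, 8.39 and 8.50 and UCHL1, a neuronal ubiquitin hydrolase, at 8.76, 8.77 and 8.66. The partners of NEFL did not follow it: NEFM, the medium neurofilament, stood at 1.96, 1.61 and 2.20, below the reference on each array, and NEFH, the heavy one, at 2.89, 2.49 and 3.36, between the references. MAPT, which encodes tau, and MAP2 had means of 5.55 and 4.86. DCX and STMN2, markers of young neurons, were below the reference on all 3 arrays, and TUBB3 stood between the references (2.96, 2.74 and 3.35).

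Of 11 synaptic genes 8 were above the reference (72.7%, against 61.7% of all genes). The stricter reference was exceeded by 6 of the 11, against 50.8% of all genes. VAMP2, a vesicle protein, stood at 7.28, 7.45 and 7.48, SYT1 at 5.34, 5.57 and 5.53, and SNAP25 at 4.37, 4.47 and 4.49. DLG4, STX1A and SYP had means of 4.82, 4.21 and 4.23. The AMPA receptor genes GRIA1 and GRIA2 were below the reference on all 3 arrays, and the NMDA receptor gene GRIN1 exceeded it on 2. None of these glutamate receptor genes was among the 6, and SYN1 was not either.

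SOX2, a factor of neural and other stem cells, stood at 8.12, 8.06 and 7.98, while the related SOX3 (1.89, 2.0 and 1.83) and SOX11 (1.76, 1.59 and 1.51) were below the reference. POU3F2 stood at 6.99, 6.59 and 6.77, ISL1 at 6.52, 6.53 and 6.41, and PAX6 at 4.82, 4.92 and 4.83. ELAVL2, a neuronal RNA-binding protein, stood at 6.72, 6.67 and 6.46, and its relatives ELAVL3 and ELAVL4 were below the reference. REST, which represses neuronal genes in other cells, was itself above both references (6.73, 6.91 and 6.70). Single members of these gene families therefore stood far above the reference beside relatives that did not reach it. In the glial group OLIG2 (4.44, 4.80 and 4.52), OLIG1 (4.94, 4.07 and 3.78) and MBP (4.51, 4.39 and 4.23) exceeded both references. GFAP (2.15, 2.42 and 2.38) was above the lower reference on B alone, and AQP4 on no array.

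Of the adrenal list 10 of 29 genes were above the reference (34.5%, against 61.7% of all genes) and 6 above the stricter one (against 50.8% of all genes). The genes of steroid synthesis and its control were split around the reference. NR5A1, the steroidogenic factor, stood at 1.73, 2.04 and 2.12, STAR at 2.31, 1.83 and 2.06, CYP11A1, the side-chain cleavage enzyme, at 1.71, 1.81 and 1.57, and MC2R, the ACTH receptor, at 1.61, 1.79 and 1.88. These 4 genes were below the reference on every array, as were CYP11B2, HSD3B1 and HSD3B2, and CYP11B1 was above it on B alone. The steroid hydroxylase genes CYP17A1 (3.02, 3.38 and 3.35) and CYP21A2 (2.70, 2.88 and 2.75) and the sulfotransferase gene SULT2A1 (3.78, 3.89 and 3.11) were above the lower reference on all 3 arrays and the stricter one on at most 2. The 4 cortex genes above the stricter reference were the ferredoxin FDX1 (7.85, 7.94 and 7.90), the lipoprotein receptor SCARB1 (7.43, 7.20 and 7.25), the secreted CCN3 (7.09, 7.12 and 7.28) and the reductase POR (5.70, 5.58 and 5.58). These genes are not confined to the adrenal, and whether their levels bear on lineage was not tested.

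Adrenal medulla genes had 3 of 12 members above the reference (25%, against 61.7% of all genes). INSM1, a factor of neuroendocrine cells, stood at 6.05, 6.12 and 5.84 and HAND2, a factor of sympathetic precursors, at 4.08, 3.95 and 3.95. PNMT, which makes adrenaline, stood at 2.83, 2.33 and 2.57, near the lower reference. The catecholamine enzymes TH (2.17, 2.30 and 2.72) and DBH (2.33, 2.90 and 1.97) exceeded the reference on 2 and 1 arrays, and the granule genes CHGA (1.98, 2.59 and 2.59) and CHGB (3.20, 2.0 and 2.60) on 2 each. The count for the medulla was 5 of 12 without array A, where a gene had only 2 arrays to clear. SLC18A1, SLC18A2, DDC and SCG2 were below the reference on all 3 arrays.

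**Figure D3:**
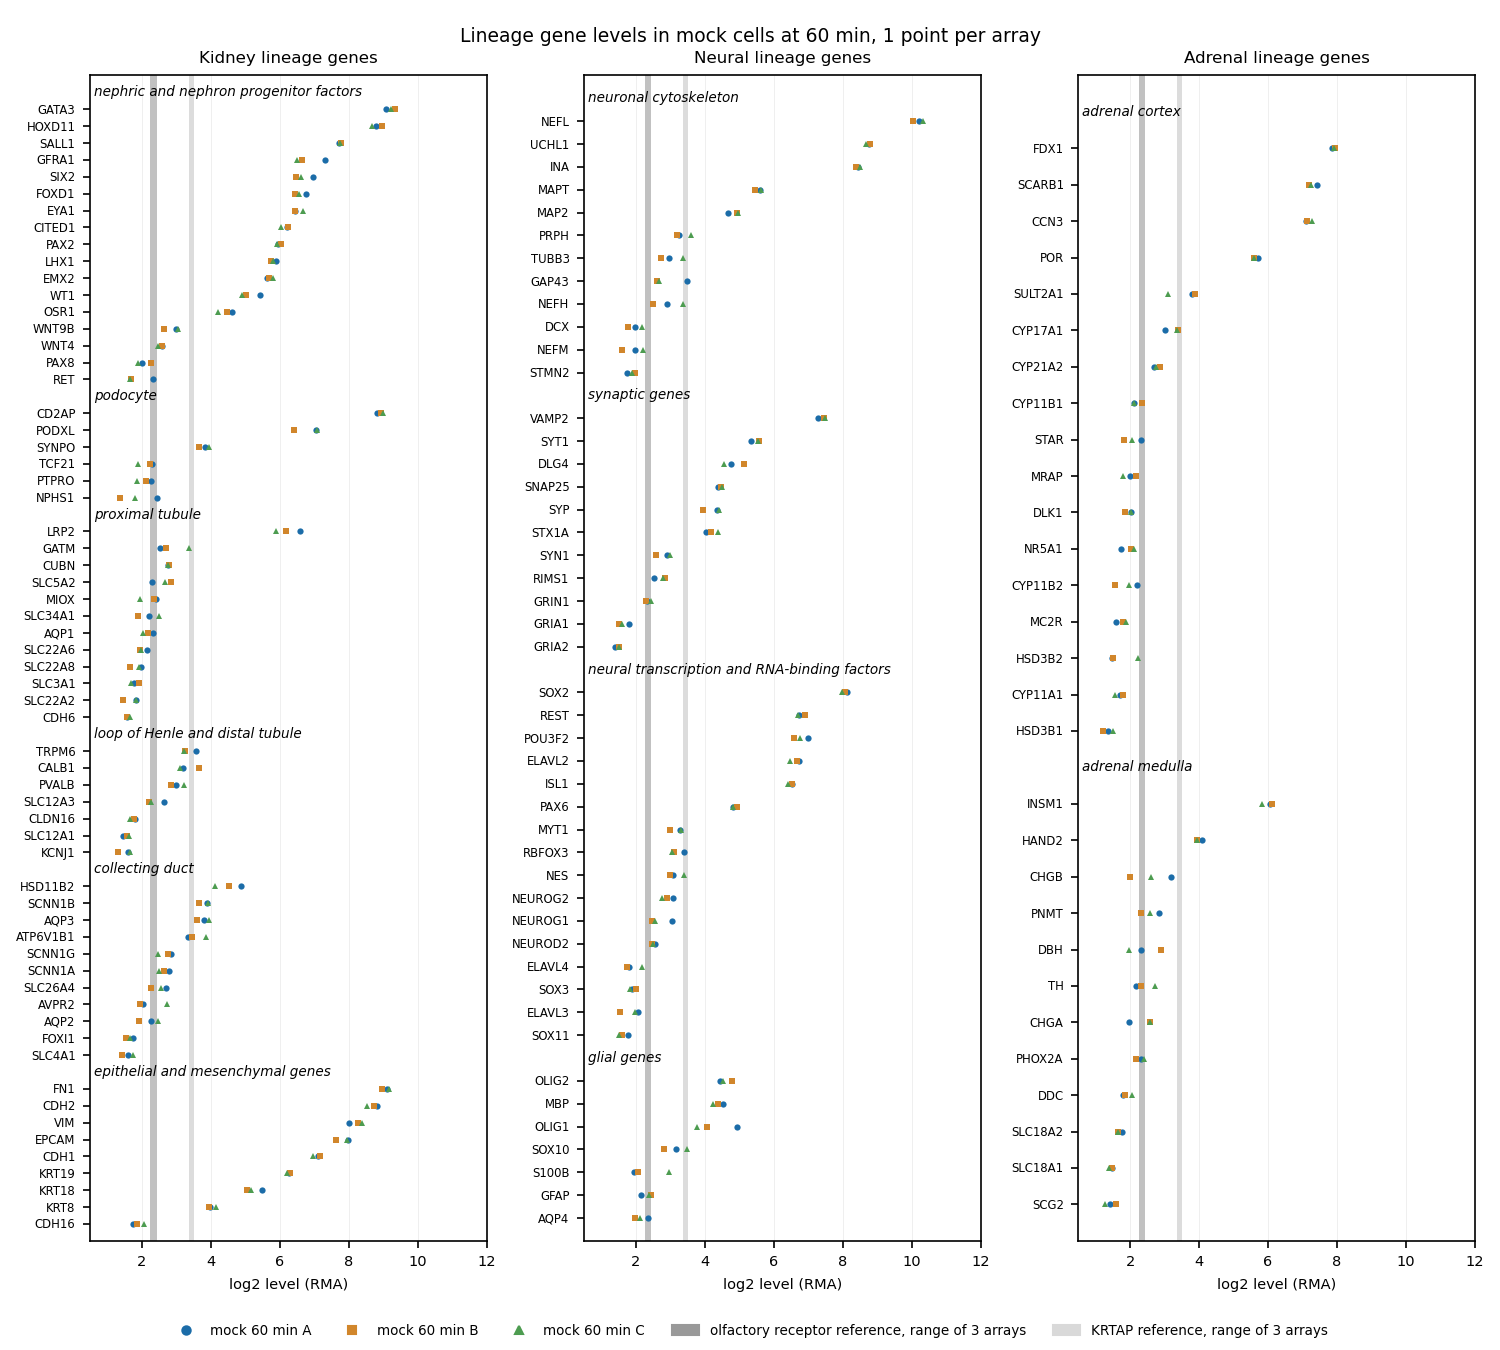
Log2 level (horizontal axis) of the measured kidney (left), neural (middle) and adrenal (right) lineage genes on the mock 60 min arrays, 1 point per array, with the grey bands giving the range of each reference. Nephron progenitor factors such as GATA3, and NEFL among neuronal genes, lie far right of both bands, while the steroid synthesis gene CYP11A1 lies left of both and CYP17A1 and CYP21A2 lie right of the darker band only.

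Markers of other cell types gave a scale for these readings: 10 of 27 were above the reference (37.0%, against 61.7% of all genes), 4 above the stricter one (against 50.8% of all genes) and 7 on all 18 arrays (against 58.9%). PTPRC, the pan-leukocyte CD45 gene, stood at 1.24, 1.26 and 1.26, CD3E, ITGAM, LYZ and NKG7 were below the reference on each array, and so were the endothelial CDH5 and TEK. ALB (1.45, 1.65 and 1.41) and HBB (1.34, 1.19 and 1.53) were below it too. Other markers of the same cell types exceeded it on all 3 arrays without clearing the stricter one: the leukocyte genes CD79A (3.57, 3.48 and 3.58), SPI1 (2.99, 3.01 and 3.14) and CD2 (2.71, 2.47 and 2.41), the endothelial KDR (2.74, 2.90 and 2.51), and the gut genes VIL1 (2.52, 2.42 and 2.38) and MUC2 (2.51, 2.37 and 2.47). CD79A missed the stricter reference on B alone. The 4 genes above both references were CD68, a lysosomal protein (8.89, 8.90 and 9.22), CDX2, a factor of intestinal epithelium (6.30, 6.39 and 6.37), LUM, a matrix proteoglycan (5.50, 5.86 and 5.59), and COL1A1 (4.63, 4.97 and 4.36). Other fibroblast genes, COL1A2, DCN and PDGFRB, were below the reference. Housekeeping genes were above both in 6 of 6, with ACTB at 7.54, 7.50 and 7.43 and GAPDH at 7.76, 7.86 and 7.69.

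**Figure D4:**
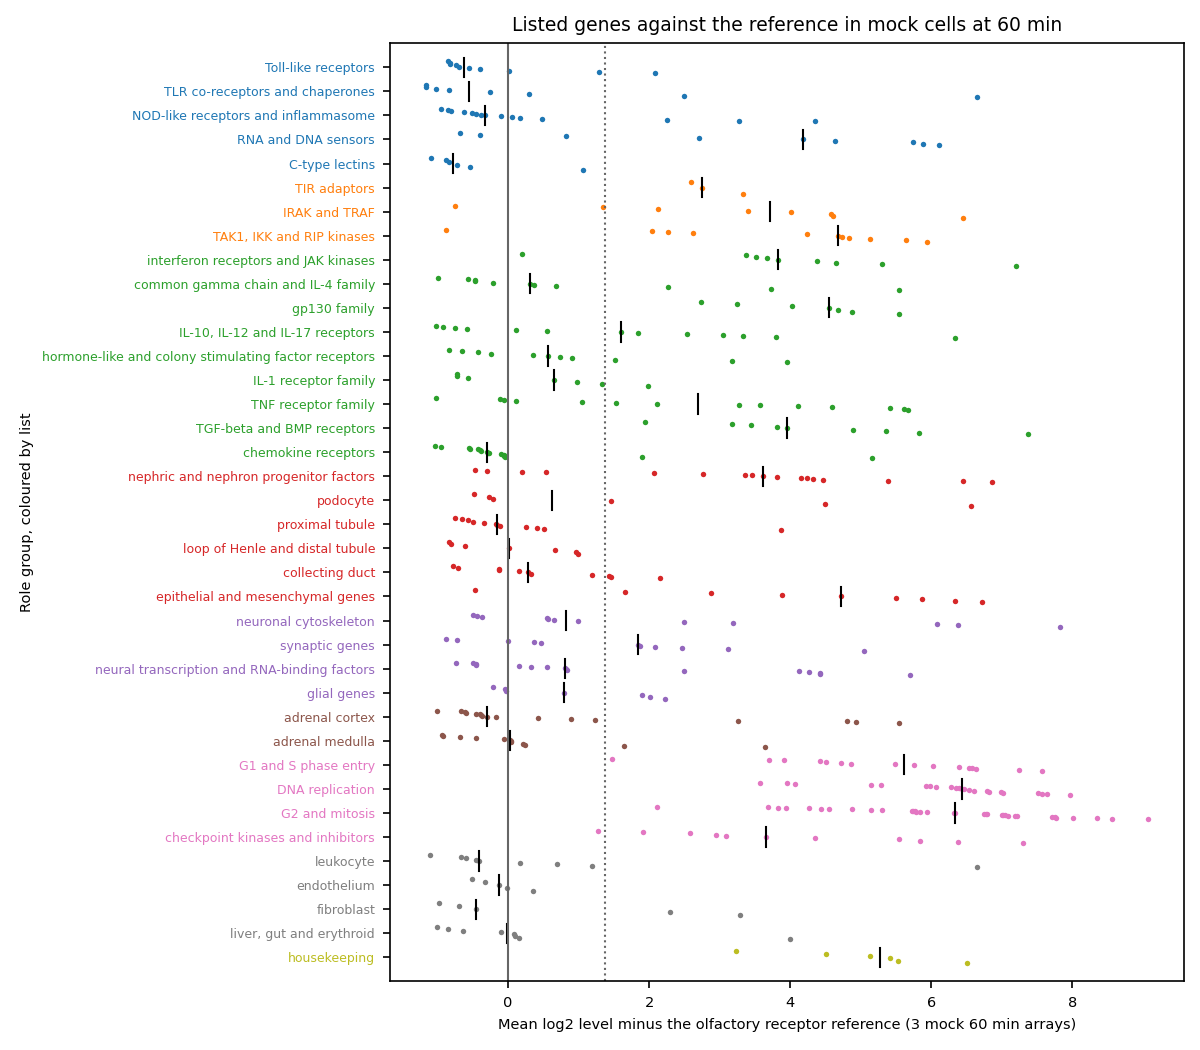
Mean log2 level of each listed gene minus the olfactory receptor reference over the 3 mock 60 min arrays (horizontal axis), 1 point per gene, with a black bar at each role group's median; the solid line is the reference and the dotted line the median of all genes (1.37). The G2 and mitosis group has a median of 6.33 and the Toll-like receptors one of -0.62.

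Cell cycle genes formed the list furthest above the reference. All 84 measured genes exceeded it on all 3 arrays (100%, against 61.7% of all genes). The stricter reference was exceeded by 83 (against 50.8% of all genes), and all 84 were above on all 18 arrays (against 58.9%). The median member sat at a percentile rank of 91.5, with 47 of 84 among the uppermost 10% of ranks of the array. Members also varied little, with a median SD of 0.10 against 0.14 over all genes and 0.13 over genes above the reference. Housekeeping genes had a median SD of 0.07. Whether the SD follows the high level of these genes was not tested.

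The kinases and cyclins of each phase were all above the reference. For entry into the cycle, CDK4 stood at 10.04, 9.91 and 9.83, CDK6 at 9.07, 8.91 and 8.82, CDK2 at 9.60, 9.69 and 9.50, and the cyclin gene CCNE1 at 8.08, 8.09 and 8.15. E2F1, a factor that switches on replication genes, stood at 8.75, 8.84 and 8.67, and RB1, which restrains it, at 8.82, 8.87 and 8.98. Among replication genes, MCM7 (10.41, 10.42 and 10.15), MCM3 (9.89, 9.85 and 10.02) and MCM4 (9.87, 9.83 and 9.92) of the replicative helicase, and TYMS, the thymidylate synthase (9.92, 10.06 and 10.03), had mean percentile ranks of 99, 98.3, 98.2 and 98.4. For mitosis, the kinases PLK1 (transcript cluster 16817017; 11.32, 11.43 and 11.54) and AURKB (10.79, 10.96 and 10.99) and CDC20, an activator of the anaphase-promoting complex (10.71, 10.66 and 10.77), reached mean ranks of 99.85, 99.6 and 99.4. The proliferation marker MKI67 stood at 10.16, 10.06 and 9.97 and TOP2A at 10.31, 10.35 and 10.44.

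Inhibitors and checkpoint kinases were above the reference as well, 11 of 11. CDKN1B, which encodes p27, stood at 8.58, 8.82 and 8.80, CDKN2B at 7.87, 8.04 and 7.79, and CDKN1A, which encodes p21, at 5.86, 6.15 and 6.04. CDKN2A stood at 5.35, 5.43 and 5.12. MDM2, the ubiquitin ligase of p53, stood at 9.58, 9.77 and 9.65, and WEE1, which holds back CDK1, at 7.92, 8.40 and 8.26. CDKN1C, at 3.71, 3.49 and 3.68, was the 1 cell cycle gene not above the stricter reference on all 3 arrays.

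The 3 arrays differed slightly in which cell cycle genes were highest. Of 34 genes of G2 and mitosis, 23 were highest on array C (67.6%, against 31.9% of all genes above the reference) and 21 lowest on A (61.8%, against 31.6%). Of 23 replication genes, 14 were highest on A (60.9%, against 39.0%). The median difference of array C from A was +0.12 for mitotic genes, -0.11 for replication genes and -0.02 for all genes. The shifts are small: CCNB1 stood at 7.24, 7.64 and 7.62, AURKA at 6.59, 6.67 and 7.13, CCNA2 at 10.00, 9.96 and 10.36, and in the other direction PCNA stood at 9.29, 9.16 and 9.10. MKI67, BIRC5, MYBL2 and FZR1 ran against the mitotic majority, being highest on A. With 1 array per letter these differences have no replicate of their own, and the part of the SILAC isotope, which is not given for each array, was not tested. Other role groups also leaned to 1 array. Genes of the neuronal cytoskeleton above the reference were highest on C in 7 of 9 cases (77.8%, against 31.9%). They were lowest on B in 7 (77.8%, against 35.6%). Only 5 of these genes exceeded the stricter reference. Podocyte genes were highest on C in 3 of 3 cases and synaptic genes in 5 of 8 (100% and 62.5%, against 31.9%). Neural transcription and RNA-binding factors were highest on A in 7 of 12 (58.3%, against 39.0%). Leans of this size were also seen in other small groups. RNA and DNA sensors were highest on A in 5 of 7 cases and TIR adaptors in 3 of 3. Checkpoint kinases and inhibitors were highest on B in 7 of 11 (63.6%, against 29.1%). These groups were picked after the values were seen.

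**Figure D5:**
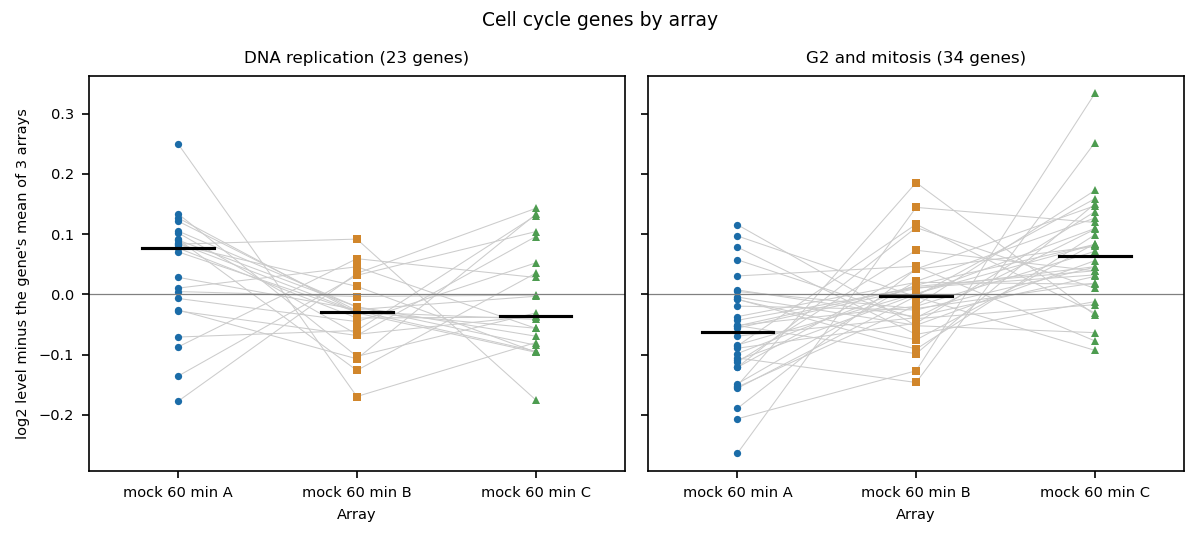
Log2 level minus the gene's own mean over 3 arrays (vertical axis) for 23 DNA replication genes (left) and 34 genes of G2 and mitosis (right) on mock 60 min arrays A, B and C, with lines joining the points of 1 gene and black bars at the medians. Mitotic genes are highest on C in 23 of 34 cases, and replication genes highest on A in 14 of 23.

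The promoters of replication and mitotic genes were then read, to see which known letters these high genes carry. Sequences came from RefSeq (GRCh38.p14) and run from 250 bases before to 50 bases after the first-listed start of each gene. Of the 84 measured cell cycle genes, 69 matched an entry. 3 sets of letters were searched on both strands: TTTGAA, the cell cycle homology region of mitotic promoters; CCAAT, the box bound by NF-Y; and the E2F letters TTTCCCGC, TTTCGCGC, TTTGCCGC and TTTGGCGC. No string contains another, though matches may share bases, and a match is not a bound site. The 250 bases before the start are shown, with matches in capitals, for the 3 mitotic and 3 replication genes highest on the arrays among those with an entry, so that the shared letters can be seen.
PLK1: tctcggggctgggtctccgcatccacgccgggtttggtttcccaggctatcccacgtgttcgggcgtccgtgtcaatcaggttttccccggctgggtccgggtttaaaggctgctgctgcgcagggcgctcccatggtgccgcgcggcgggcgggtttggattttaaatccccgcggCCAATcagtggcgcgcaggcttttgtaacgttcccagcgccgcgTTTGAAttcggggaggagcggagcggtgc
AURKB: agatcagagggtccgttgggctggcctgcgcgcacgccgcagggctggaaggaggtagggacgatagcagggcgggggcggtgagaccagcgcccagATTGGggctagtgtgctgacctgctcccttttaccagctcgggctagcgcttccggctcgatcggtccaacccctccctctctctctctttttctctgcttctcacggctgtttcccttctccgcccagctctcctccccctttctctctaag
CDC20: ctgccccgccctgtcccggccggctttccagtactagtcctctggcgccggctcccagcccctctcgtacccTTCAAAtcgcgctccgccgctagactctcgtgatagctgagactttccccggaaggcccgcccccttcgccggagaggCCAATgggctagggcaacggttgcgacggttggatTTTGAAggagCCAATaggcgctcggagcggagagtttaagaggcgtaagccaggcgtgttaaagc
MCM7: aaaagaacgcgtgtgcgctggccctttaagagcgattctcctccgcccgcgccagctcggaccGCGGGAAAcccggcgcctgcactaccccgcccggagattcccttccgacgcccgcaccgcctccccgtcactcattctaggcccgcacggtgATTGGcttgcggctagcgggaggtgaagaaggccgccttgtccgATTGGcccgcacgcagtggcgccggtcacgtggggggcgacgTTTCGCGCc
TYMS: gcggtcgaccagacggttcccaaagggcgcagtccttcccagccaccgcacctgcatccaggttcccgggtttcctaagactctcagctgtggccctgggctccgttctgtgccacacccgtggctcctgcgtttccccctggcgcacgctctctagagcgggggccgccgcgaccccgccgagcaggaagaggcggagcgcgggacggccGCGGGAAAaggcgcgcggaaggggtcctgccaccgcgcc
MCM3: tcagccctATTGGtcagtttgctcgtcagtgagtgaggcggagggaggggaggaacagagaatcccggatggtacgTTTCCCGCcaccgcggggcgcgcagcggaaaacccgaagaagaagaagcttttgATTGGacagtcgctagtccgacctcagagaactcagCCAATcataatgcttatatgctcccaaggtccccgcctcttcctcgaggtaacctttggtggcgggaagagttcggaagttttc

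These stretches lie at chr16:23678639-23678888 on the plus strand (PLK1), chr17:8210226-8210475 on the minus strand (AURKB), chr1:43358731-43358980 on the plus strand (CDC20), chr7:100101398-100101647 on the minus strand (MCM7), chr18:657403-657652 on the plus strand (TYMS) and chr6:52284743-52284992 on the minus strand (MCM3). Each is printed along its own gene's strand, 5′ to 3′. PLK1 has TTTGAA at -29, counted from the start, and CCAAT at -73. CDC20 has TTTGAA letters at -178, there on the opposite strand as TTCAAA, and at -65, with CCAAT at -100 and -55. AURKB has CCAAT on the opposite strand (ATTGG) and no TTTGAA in this window. MCM7 has E2F letters at -187 and -9, TYMS at -39 and MCM3 at -174, and none of these 3 has TTTGAA.

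Over the whole groups the same division held as a count. TTTGAA was found in 17 of 28 mitotic promoters (60.7%), in 1 of 20 replication promoters, that of RRM1, and in 15.4% of all 27305 promoters. The E2F letters were found in 12 of 20 replication promoters (60%), in 6 of 12 of G1 and S phase entry, in 2 of 28 mitotic promoters, CDK1 and NUSAP1, and in 3.33% of all. CCAAT was found in 22 of 28 mitotic and 13 of 20 replication promoters, against 35.7% of all. When every listed start of a gene was read, TTTGAA was in 64.3% of mitotic promoters against 18.2% of all. The mitotic promoters without TTTGAA in this window include those of CCNA2, CCNB1, AURKB and BUB1, whose levels were above both references like the rest.

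Base composition followed the reference over all genes. Promoters of genes above the reference had a median of 26 CpG and 65.3% G and C, and those of genes not above it 5 CpG and 52.0%. TTTGAA, an A- and T-rich string, was in 9.59% of the former and 19.2% of the latter, and the former is the closer background for mitotic genes, all of which were above the reference. TTTGAA also occurs outside the cell cycle list: 4 of the 7 Toll-like receptor promoters in the table hold it, with a median of 48.3% G and C. Whether these matches have a role was not tested. Among these, TLR5 has 27 CpG and no TTTGAA and TLR3 has 5 CpG and TTTGAA.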

How the data were processed

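The authors deposited log2 expression values made with RMA in oligo 1.30.0, per the submitters' processing notes. As a method, RMA makes the distributions of the arrays equal, so levels are relative to the whole array. No further normalization was applied here. The table holds 53617 rows, of which 23871 have 1 gene symbol in the platform's annotation, 1842 have several and 27904 are not listed there. Symbols were updated through the RefSeq gene table, which changed 655 and left 4 as given. Of the 22357 genes, 663 had several rows, and the row with the highest mean over the 3 arrays was used.

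Levels, ranks, means, SDs and counts above the reference were computed in Python 3.11.15 with pandas 2.3.3 and numpy 2.4.6, and the counting was tested on simulated data. No test between groups was made, so no p-value is given. Per role group, the named genes were up to 4 with the highest and 2 with the lowest mean difference from the reference and up to 3 with the largest SD above it. To these came every Toll-like receptor and TIR adaptor, members within 0.3 of the reference or above it on 1 or 2 arrays, ACTB, GAPDH, members of counts of 5 or fewer, and the 10 highest and 10 most variable genes of the arrays. Further members were named after their values were seen. The members and lists were chosen with earlier results of these data known. Alternatives were 4 other choices of reference or row, leaving out each array, the mock 120 min arrays, and all 18 arrays, the last added after seeing the data.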

Additional observations from a re-analysis of the deposited data

How the results depend on the processing

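The counts of pattern receptors, adaptors and kinases, cytokine receptors, kidney genes, cell cycle genes and housekeeping genes above the reference stayed within 1.5 times their reported value under all 9 alternatives. Neural lineage genes fell to 20 and adrenal lineage genes to 6 with the keratin-associated protein reference, and markers of other cell types to 4 with it and to 6 with the 99th percentile of olfactory receptors. The 99th percentile is higher by construction, and the keratin-associated protein reference was higher on each array. Leaving out 1 array changed no list's count by more than 1.5 times. Among role groups it moved the adrenal medulla, from 3 to 5 without array A. By construction such a count can only stay or rise, because a gene then has fewer arrays to clear. The mean level turned from above to below the reference for 37 of 192 named genes with the keratin-associated protein reference, with these log2 differences: CALB1 -0.0933, CD14 -0.76, CD2 -0.88, CSF1R -0.49, CSF2RB -0.15, CUBN -0.65, CYP17A1 -0.16, DHX58 -0.24, GAP43 -0.49, GATM -0.54, IL10RA -0.50, IL1R1 -0.40, IL1RAP -0.0779, IL22RA1 -0.95, IL2RB -0.69, IL2RG -0.75, IL3RA -0.70, IL9R -0.37, KDR -0.70, MUC2 -0.96, NEFH -0.50, NES -0.25, NEUROD2 -0.90, NEUROG1 -0.73, NGFR -0.0065, NLRP1 -0.57, PNMT -0.84, PVALB -0.39, SCNN1A -0.78, SLC26A4 -0.90, SOX10 -0.26, SPI1 -0.37, SYN1 -0.59, TRPM6 -0.0585, TUBB3 -0.40, VIL1 -0.97, WNT4 -0.86. With the 99th percentile they were CD14 -0.17, CD2 -0.30, CUBN -0.0628, IL22RA1 -0.36, IL2RB -0.10, IL2RG -0.16, IL3RA -0.12, KDR -0.11, MUC2 -0.38, NEUROD2 -0.31, NEUROG1 -0.14, PNMT -0.25, SCNN1A -0.19, SLC26A4 -0.31, SYN1 -0.0013, VIL1 -0.39, WNT4 -0.28. Over all 18 arrays NEUROD2 turned (-0.0127) and on the mock 120 min arrays VIL1 did (-0.14), and the cause was not tested for either. Median SDs over arrays moved for C-type lectins (0.2311) and chemokine receptors (0.2852) when members above the reference alone were used. These values rest on 1 gene, CARD9, and on 2 genes, CXCR4 and CCR7. A gene between the references, from 2.25 to 3.50 on array B for example, is thus above the one and not the other. No paired analysis was possible because 1 group was described and no test was made.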

Other observations

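Outside the lists, the 10 genes with the highest mean levels on the mock 60 min arrays were the linker histone gene H1-4 (mean 12.57 ± 0.07 SD, n = 3), the actin-binding PFN1 (12.31 ± 0.05), the ribosomal protein genes RPL19 (12.27) and RPS28 (12.17), the elongation factor EEF2 (12.20), the mitochondrial genes ND1 (12.22), COX1 (12.12) and COX2 (11.94), OAZ1 (12.07), which restrains polyamine synthesis, and the proton pump gene ATP6V0C (11.96). Their order also depends on the probes. RPS28 varied most among them, at 11.92, 12.24 and 12.33 on arrays A, B and C.

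The genes that varied most between the 3 arrays, among those above the reference on all of them, were mostly low and included pseudogenes and small RNAs. LOC440570 stood at 4.67, 2.71 and 3.16 (SD 1.03), the pseudogene RNA5SP122 at 3.07, 4.10 and 2.40, and the microRNA gene MIR1224 at 2.52, 2.88 and 4.10. RAB39B, a small GTPase of neurons, stood at 3.85, 4.06 and 2.41, and TREX2, an exonuclease, at 3.27, 2.98 and 4.53. The highest mean among the 10 most variable genes was 3.99, that of the pseudogene WHAMMP1.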
